A study of Mus musculus with 2 samples.

Results

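The 6 steroidogenic cytochrome P450 genes Cyp11a1, Cyp11b1, Cyp11b2, Cyp21a1, Cyp17a1 and Cyp19a1 were chosen by symbol out of 55536 annotated genes. They are among 94 genes counted here as cytochrome P450 genes, those whose symbol is Cyp, a number, letters and a number. Any P450 gene with another form of symbol was left out of the 94, as were pseudogenes with symbols ending in ps. Total RNA had been sequenced from the adrenal glands of female 5xFAD x CAST mice aged 8 to 10 months. The 5xFAD strain carries transgenes under a neuronal promoter and models Alzheimer's disease, and CAST is a wild-derived inbred strain. The series formed 1 group of 2 biological replicates, mouse 1 and mouse 2 by replicate number, with no treatment named, and no other group was analysed here. The labels do not say whether these animals carried the transgenes. One donor identifier was given for both, and only their replicate numbers say that they were different animals, so any spread between them may be partly technical.

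Steroid hormones are made from cholesterol by a chain of enzymes, several of which are cytochromes P450, heme proteins that use electrons and molecular oxygen to hydroxylate or cleave the steroid. Cyp11a1, Cyp11b1 and Cyp11b2 work in mitochondria and receive electrons from ferredoxin (Fdx1) and its reductase (Fdxr). Cyp21a1, Cyp17a1 and Cyp19a1 work in the endoplasmic reticulum and receive them from Por. Cyp11a1 cuts the cholesterol side chain to give pregnenolone, the first committed step. Cyp21a1 is the 21-hydroxylase needed for both glucocorticoids and mineralocorticoids, Cyp11b1 makes corticosterone in the zona fasciculata, and Cyp11b2 makes aldosterone in the zona glomerulosa. Cyp17a1, the 17-hydroxylase and lyase, opens the way to cortisol and androgens, and Cyp19a1, aromatase, turns androgens into estrogens. The adult mouse adrenal is known for using corticosterone as its glucocorticoid and for making little or no Cyp17a1.

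The stretch that codes for the loop around the heme-binding cysteine is shown for each gene, because it is the part that all 6 enzymes share as P450 proteins. It is 30 bases long, was found once in each coding sequence, and is written 5′ to 3′ on the coding strand with the cysteine codon in capitals. Sequences were read from the GENCODE M21 transcripts of the leading isoform (mm10).
Cyp11a1: tttggctggggtgttcggcagTGTctgggc
Cyp11b1: tttggctttggggtgcgccagTGCctgggg
Cyp11b2: tttggctttggggtgcgccagTGCctgggg
Cyp21a1: tttggctgtggggcacgcgtgTGCctggga
Cyp17a1: ttcggagctggtccccgatcgTGCattgga
Cyp19a1: tttggctttgggccccgcggcTGTgctggg
Cyp11b1 and Cyp11b2 had the same 30 bases here, at chr15:74836275-74836304 and chr15:74851461-74851490 on the minus strand, while the other 4 genes each differed. The Cyp11a1 stretch lies in exon 8 at chr9:58026211-58026240 on the plus strand, and the Cyp21a1 stretch in exon 10 at chr17:34801978-34802007 on the minus strand. The Cyp17a1 stretch lies in exon 8 at chr19:46667520-46667549, and the Cyp19a1 stretch in exon 9 at chr9:54166952-54166981, both on the minus strand.

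Beyond this loop, Cyp11b1 and Cyp11b2 were close copies, and the rest of the set was not. Aligned end to end, the coding sequences of Cyp11b1 and Cyp11b2 were identical at 1309 of 1503 aligned bases (87.1%). The other 14 pairs of members were identical at 54.6% to 59.4% of aligned bases. Cyp21a1 had its own close copy outside the set, the unprocessed pseudogene Cyp21a2-ps, whose transcript matched at 1348 of 1382 locally aligned bases (97.5%, with 91 further bases in gaps). The longest identical stretch of each pair is shown, because reads that fall inside it cannot be assigned to 1 gene by sequence. It stands in capitals, with 25 flanking bases in lower case on each side. For Cyp11b1 (chr15:74840917-74841612) and Cyp11b2 (chr15:74855537-74856231) these are coding bases 1 to 294, which span the end of exon 1 and the start of exon 2, and 244 bases in a row are identical.
Cyp11b1: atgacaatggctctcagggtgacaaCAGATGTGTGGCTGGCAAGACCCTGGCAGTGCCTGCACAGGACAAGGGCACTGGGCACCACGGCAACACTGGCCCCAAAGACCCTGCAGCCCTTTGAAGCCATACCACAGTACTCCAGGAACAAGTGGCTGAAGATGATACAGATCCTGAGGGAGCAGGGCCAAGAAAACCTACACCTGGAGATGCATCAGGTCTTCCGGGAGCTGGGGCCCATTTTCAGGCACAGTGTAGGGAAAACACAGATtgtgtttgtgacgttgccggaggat
Cyp11b2: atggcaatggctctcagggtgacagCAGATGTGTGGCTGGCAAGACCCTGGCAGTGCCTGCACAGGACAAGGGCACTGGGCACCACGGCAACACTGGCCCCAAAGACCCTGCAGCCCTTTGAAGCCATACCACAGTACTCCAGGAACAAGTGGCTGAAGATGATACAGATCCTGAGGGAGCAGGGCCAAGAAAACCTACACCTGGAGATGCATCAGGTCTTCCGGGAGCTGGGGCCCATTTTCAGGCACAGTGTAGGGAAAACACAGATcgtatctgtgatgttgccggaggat
For Cyp21a1 (chr17:34801864-34802137) and Cyp21a2-ps (chr17:34719906-34720179) the longest identical stretch has 140 bases, from base 1216 to base 1355 of the Cyp21a1 coding sequence, and it includes the heme loop.
Cyp21a1: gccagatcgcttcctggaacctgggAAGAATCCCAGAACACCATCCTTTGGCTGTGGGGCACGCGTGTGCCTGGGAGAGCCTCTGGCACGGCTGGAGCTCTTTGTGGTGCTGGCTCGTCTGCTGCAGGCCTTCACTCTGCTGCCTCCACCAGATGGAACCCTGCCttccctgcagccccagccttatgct
Cyp21a2-ps: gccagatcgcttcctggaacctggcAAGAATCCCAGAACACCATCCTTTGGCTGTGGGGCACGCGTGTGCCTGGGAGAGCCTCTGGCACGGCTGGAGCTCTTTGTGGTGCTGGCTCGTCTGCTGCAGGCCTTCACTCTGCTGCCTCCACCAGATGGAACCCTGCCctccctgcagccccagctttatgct

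Each library was quantified in the deposited files along 2 routes. The first quantification came from alignments to the transcriptome and gives expected counts, which a model divides between similar genes. The second used the reads directly, with an index of transcripts. Levels are in TPM, a length-corrected share of all transcripts, from the first quantification unless the second is named, and a mean ± SD is over both mice. Mouse 1 had 36558609 and mouse 2 had 32192201 expected counts assigned to genes. Markers of the adrenal cortex were present as labelled: all 6 of Star, Nr5a1, Mc2r, Mrap, Scarb1 and Hsd3b1 stood above 1 TPM in both mice. All 6 markers of the medulla did so too, and 5 of 5 adipocyte markers did, with a summed level of 1161.6 TPM in mouse 1 and 1848.4 TPM in mouse 2.

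Transcripts of 4 of the 6 enzymes, those needed for corticosterone and aldosterone, were abundant, and those of the androgen and estrogen enzymes were scarce. Cyp21a1, Cyp11b1 and Cyp11a1 stood at rank 3, 4 and 5 among 22015 nuclear protein-coding genes by mean TPM. Cyp11b2 stood at rank 239, Cyp17a1 at rank 13097, and Cyp19a1 at rank 16908. In all, 4 members reached 1 TPM in both mice, as did 13136 of the 55536 genes. The 6 genes together summed to 10023 TPM in mouse 1 and 10370 TPM in mouse 2, which was 3.40% and 3.21% of the TPM of nuclear protein-coding genes.

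Cyp11a1, the side-chain cleavage enzyme (chromosome 9, 58006411 to 58027023, plus strand, 9 exons), had 2218 TPM in mouse 1 and 2284 TPM in mouse 2. Its mean of 2251 ± 47.0 TPM (SD, n = 2) rested on 183442 and 152421 expected counts. Mouse 2 was slightly the higher in unscaled TPM, whereas mouse 1 was the higher once libraries were scaled to each other, as given further on. Star, which carries cholesterol to the mitochondrial enzyme, had 5127 and 5742 TPM, so that Cyp11a1 stood at 0.433 and 0.398 times the Star level in mouse 1 and mouse 2. No near-identical copy of the leading Cyp11a1 transcript was found: none of its 2020 windows of 101 bases occurred in a transcript of another gene.

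Cyp21a1, the 21-hydroxylase (chromosome 17, 34801348 to 34804561, minus strand, 10 exons), was the most abundant P450 transcript of the gland. It had 4853 TPM in mouse 1 and 5124 TPM in mouse 2 (4989 ± 192 TPM, SD, n = 2), from 377912 and 322609 expected counts. Among nuclear protein-coding genes it was preceded by Star and by Hsd3b1, the dehydrogenase that turns pregnenolone into progesterone, which had 5098 and 5673 TPM. Hsd3b1 stood above Cyp21a1 within each mouse, also in the second quantification, at 4806 and 5318 TPM beside 4749 and 4997 TPM for Cyp21a1.

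Cyp11b1, the 11-beta-hydroxylase (chromosome 15, 74834125 to 74841643, minus strand, 9 exons), had 2769 TPM in mouse 1 and 2800 TPM in mouse 2 (2784 ± 21.9 TPM, SD, n = 2). These came from 345516 and 281996 expected counts. The Cyp21a1 level was 1.75 and 1.83 times that of Cyp11b1, and the Cyp11b1 level was 1.25 and 1.23 times that of Cyp11a1, in mouse 1 and mouse 2. The order Cyp21a1, Cyp11b1, Cyp11a1 was therefore the same in both mice and did not overlap between them, and it held in the second quantification as well.

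Cyp11b2, aldosterone synthase (chromosome 15, 74851010 to 74856318, minus strand, 9 exons), had 183.34 TPM in mouse 1 and 160.99 TPM in mouse 2. Its mean of 172.2 ± 15.8 TPM (SD, n = 2) rested on 11384 and 8068 expected counts. In the first quantification it lay level with Rps3 (172.7 TPM) and Naca (172.0 TPM), its neighbours in the order of levels. The second quantification put the mean of Cyp11b2 at 415.1 TPM, so its place in that order depends on the quantification. The Cyp11b1 level was 15.1 and 17.4 times that of Cyp11b2 in mouse 1 and mouse 2, a ratio that the second quantification put much lower, as given further on. All 8 markers listed for the zona glomerulosa were present at 1 TPM or more in both mice. Among them were the angiotensin receptor genes Agtr1a, with 82.21 and 80.87 TPM, and Agtr1b, with 2.48 and 2.27 TPM.

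Cyp17a1, the 17-hydroxylase (chromosome 19, 46667165 to 46673172, minus strand, 8 exons), had 0.49 TPM in mouse 1 and 0.53 TPM in mouse 2, from 28 and 26 expected counts. That is 0.766 CPM, a count corrected for library size but not for length (exact 95% Poisson interval 0.509 to 1.11), and 0.808 CPM (0.528 to 1.18), intervals that overlap and cover counting error only. Cyp17a1 was thus detected, at a level below 1 TPM in both mice. It lies between Wbp1l, which had 62.9 TPM on average and ends 9.8 kb away, and Borcs7, which had 4.63 TPM.

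Cyp19a1, aromatase (chromosome 9, 54165937 to 54268110, minus strand, 9 exons in its leading transcript), had 1 expected count in mouse 1, listed at 0.01 TPM, and 0 in mouse 2. The count of 0 allows up to 0.0932 CPM, taking 3 counts as the floor, and the single count has an exact 95% Poisson interval that reaches 0.152 CPM. The second quantification gave Cyp19a1 0.255 CPM in mouse 1, above that interval. In mouse 2 it gave 0.114 CPM, above the floor but inside the exact 95% Poisson interval, which reaches 0.115 CPM. The level in mouse 1 thus depends on the quantification, and the level is low in both quantifications. The markers that go with aromatase in the ovary were mostly low: 2 of 7 granulosa and oocyte genes, Inha and Inhbb, reached 1 TPM in both mice, and Fshr, the receptor for follicle-stimulating hormone, had 0 counts. The 7 genes summed to 11.85 TPM in mouse 1 and 11.5 TPM in mouse 2. Of 3 theca and Leydig cell genes only Insl3 reached 1 TPM in both mice, with 1.33 and 2.65 TPM. In the second quantification Insl3 had 0.384 TPM in mouse 1 and 1.77 TPM in mouse 2. Lhcgr had 6 and 1 expected counts in the first, against 34.1 and 19.4 estimated counts in the second.

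**Figure D1:**
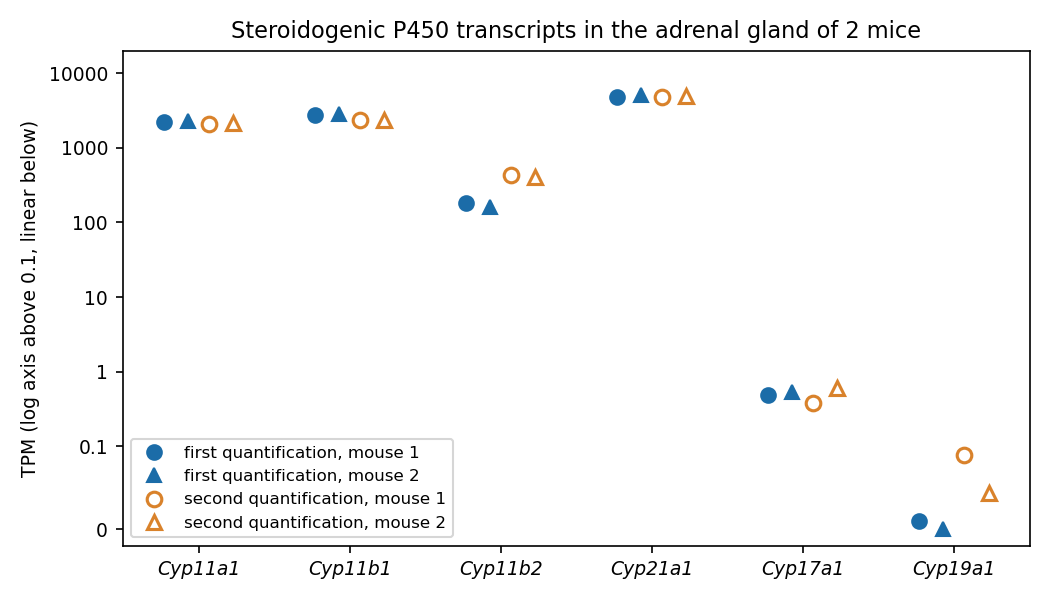
TPM of the 6 genes in mouse 1 (circles) and mouse 2 (triangles) in the first quantification (filled) and the second (open), on an axis that is logarithmic above 0.1 TPM and linear below it. Cyp21a1, Cyp11b1 and Cyp11a1 lie at the top, Cyp11b2 averages 172.2 TPM in the first quantification and 415.1 TPM in the second, Cyp17a1 lies below 1 TPM and Cyp19a1 near 0.

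Among the 94 cytochrome P450 genes counted by symbol, the 4 corticosteroid enzymes took ranks 1 to 4. The members held 96.24% of the TPM of these 94 genes in mouse 1 and 96.11% in mouse 2. P450 genes with other forms of symbol enter neither the shares nor the ranks. By expected counts, which favour long transcripts, they held 96.86% and 96.71%. Of the 88 other P450 genes, 20 reached 1 TPM in both mice. The next in order were Cyp2f2 with 181.14 and 155.61 TPM, Cyp2e1 with 86.75 and 128.07 TPM, and Cyp4f13 with 24.48 and 23.76 TPM. Cyp2f2, a xenobiotic-metabolising P450 that marks the mouse X-zone, had a mean of 168.4 ± 18.1 TPM, which did not differ from that of Cyp11b2 beyond the spread between the mice in the first quantification. In the second, Cyp2f2 had 168.7 and 142.6 TPM and Cyp11b2, with 430.0 and 400.3 TPM, stood well above it. Cyp17a1 stood at rank 28 of 94, and Cyp19a1 shared the last positions above 0 at a mean of 0.005 TPM, ahead of 25 P450 genes listed at 0 in both mice.

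**Figure D2:**
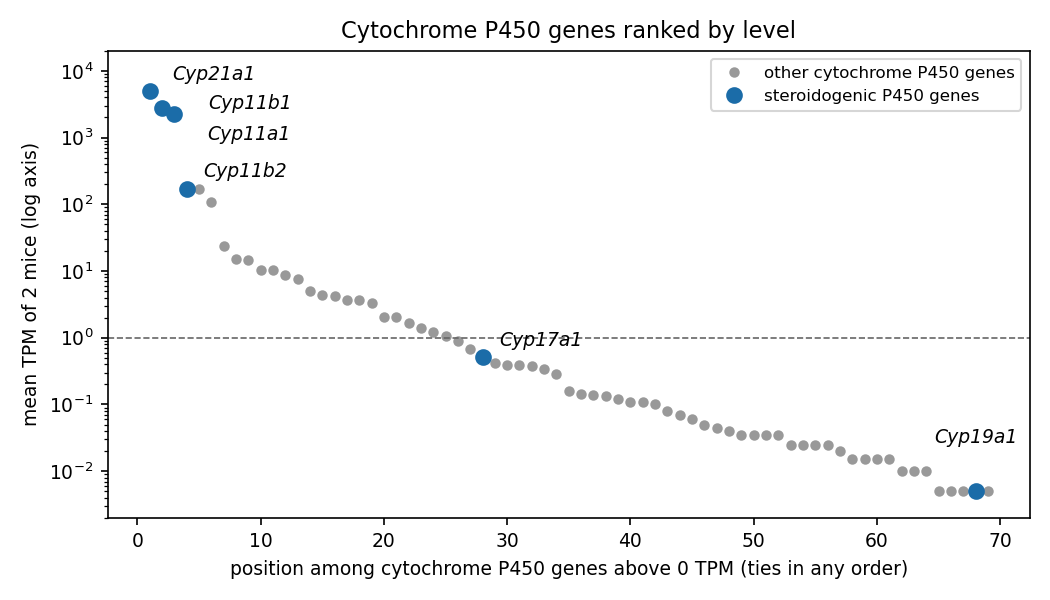
Mean TPM of 2 mice (log axis) of the cytochrome P450 genes counted by symbol and above 0, in order of level. The 6 steroidogenic genes are in blue and the others in grey. The dashed line marks 1 TPM; Cyp21a1, Cyp11b1, Cyp11a1 and Cyp11b2 lead the order and Cyp17a1 stands at position 28.

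Each electron carrier was less abundant than the sum of the enzymes it serves. Taken singly, Cyp11b2, Cyp17a1 and Cyp19a1 stood below their carriers in the first quantification. Cyp11a1, Cyp11b1 and Cyp11b2 together had 5170 TPM in mouse 1 and 5245 TPM in mouse 2, which was 8.83 and 10.2 times the level of Fdx1 and 12.0 and 10.3 times that of Fdxr. Fdx1 had 585.56 and 514.41 TPM, and Fdxr had 430.92 and 509.20 TPM. The microsomal enzymes, almost entirely Cyp21a1, had 42.3 and 42.8 times the level of Por, which had 114.73 and 119.70 TPM. These are ratios of RNA levels, and say nothing of protein amounts.

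The division of reads between Cyp11b1 and Cyp11b2 depended on the quantification. Cyp11b2 had 430.0 TPM in mouse 1 and 400.3 TPM in mouse 2 in the second quantification, so the first gave 183.34 and 160.99 TPM against these, a log2 ratio of -1.27 (first over second, with 0.1 TPM added, from the means over mice). In each mouse alone the log2 ratio was -1.23 and -1.31. Of 13694 genes whose mean over both quantifications reached 1 TPM, 5.62% differed at least 2-fold and 2.41% were at least 2-fold lower in the first. Of the 4 members that passed that filter, Cyp11b2 was the only one 2-fold apart. Cyp11b1 had a log2 ratio of 0.24, Cyp11a1 of 0.10 and Cyp21a1 of 0.03. On CPM in place of TPM, the small ratios of Cyp11a1 and Cyp21a1 changed sign, to -0.04 and -0.10, and that of Cyp11b2 was -1.40.

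The sum over the pair was slightly higher in the second quantification, while the share of Cyp11b2 rose far more. Cyp11b1 and Cyp11b2 together had 9762 CPM in mouse 1 and 9010 in mouse 2 in the first quantification, against 9977 and 9140 in the second. In mouse 1, Cyp11b1 had 9451 CPM in the first and 9179 in the second, and Cyp11b2 had 311.4 and 798.0. In mouse 2, Cyp11b1 had 8760 and 8459 CPM, and Cyp11b2 had 250.6 and 681.3. Cyp11b2 thus rose by more than Cyp11b1 fell in both mice. Cyp11b2 took 3.19% and 2.78% of the counts of the pair in the first, against 8.00% and 7.45% in the second. The ratio of Cyp11b1 to Cyp11b2 TPM was 15.1 and 17.4 in the first, against 5.49 and 5.92 in the second. The gap between the quantifications was larger than the gap between the mice in every one of these measures of Cyp11b2.

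The deposited posterior SD of a count, the uncertainty that the authors' model attached to the division of reads, was far smaller than this gap. Mouse 1 had 56.5 counts and mouse 2 had 48.7 counts as this SD for both Cyp11b1 and Cyp11b2, and no other gene had the same pair of values within 0.005 counts. For Cyp11b2 this was 0.496% and 0.603% of the count, and for Cyp11b1 0.0164% and 0.0173%. The deposited interval of Cyp11b2 TPM ran between 176.5 and 183.9 TPM in mouse 1 and between 153.7 and 161.5 TPM in mouse 2, neither of which reached the second quantification's value. Which quantification is nearer to the true level was not tested.

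Cyp21a1 and its pseudogene copy were divided alike in both quantifications. Cyp21a2-ps had 239.36 TPM in mouse 1 and 247.31 TPM in mouse 2, a level above that of Cyp11b2 in both mice. In the second quantification the order was the reverse, with 235.7 and 244.3 TPM for the pseudogene beside 430.0 and 400.3 TPM for Cyp11b2. It took 3.20% and 3.13% of the counts of the pair in the first quantification, against 3.16% and 3.11% in the second. The ratio of Cyp21a1 to Cyp21a2-ps TPM was 20.3 and 20.7 in the first, against 20.1 and 20.5 in the second. Their posterior SDs were again equal to each other, with 32.96 counts in mouse 1 against 30.67 counts in mouse 2, and no other gene shared them. As a near-identical copy the pseudogene is reported as uncertain, although its share was alike in both quantifications.

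**Figure D3:**
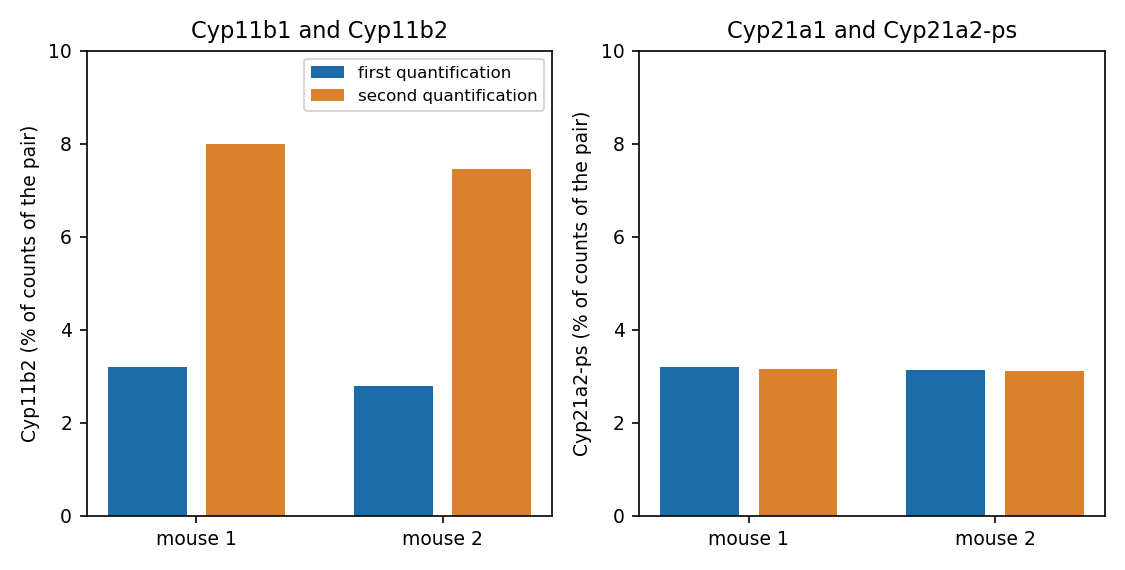
Percent of the counts of each pair given to Cyp11b2 (left) and to Cyp21a2-ps (right) in each mouse, in the first quantification (blue) and the second (orange); bars start at 0. The Cyp11b2 share is 3.19% and 2.78% in the first against 8.00% and 7.45% in the second, while the Cyp21a2-ps share is between 3.11% and 3.20% throughout.

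Identical sequence covered a minority of each pair's transcripts at read length. Of all windows of 101 bases along the transcript, the read span that the deposited effective lengths correspond to, 11.08% of those of Cyp11b2 occurred identically in Cyp11b1, and 5.51% of those of Cyp11b1 occurred in Cyp11b2. For Cyp21a1 5.62% of these windows were shared with Cyp21a2-ps, and for the pseudogene 8.57%. At 31 bases Cyp11b2 shared 25.33% of its windows, all with Cyp11b1, and Cyp21a1 shared 35.95%, all with Cyp21a2-ps. Cyp11b1 shared 14.48%, of which 404 windows were those of Cyp11b2 and the other 50 occurred in further genes. Cyp17a1 shared no window of either length, and Cyp19a1 shared 37 of 2343 windows of 31 bases and none of 101.

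**Figure D4:**
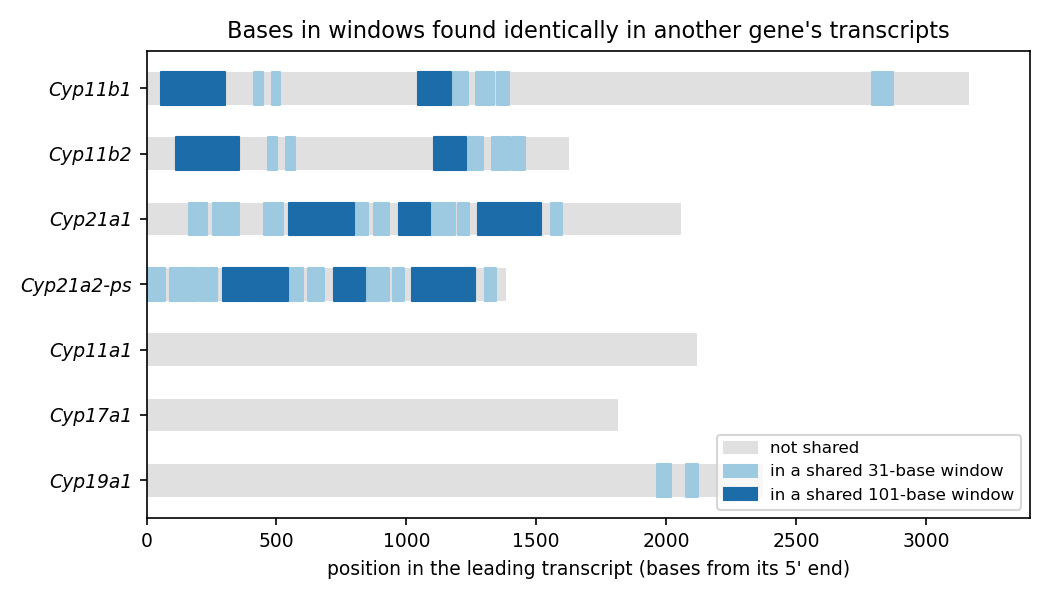
Leading transcript of each gene as a bar over its length in bases, with stretches covered by windows that occur identically in another gene's transcripts in light blue (31 bases) and dark blue (101 bases). Shared stretches of Cyp11b1 and Cyp11b2 lie near the 5′ end and in the middle of the coding region, those of Cyp21a1 along most of its middle, and Cyp11a1 and Cyp17a1 have none.

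Between the mice, 4 members were slightly higher in mouse 1 once libraries were scaled to each other. On expected counts with TMM scaling, which aligns the bulk of genes, the log2 ratio of mouse 1 to mouse 2 was 0.36 for Cyp11b2, 0.16 for Cyp11b1, 0.13 for Cyp11a1 and 0.09 for Cyp21a1. An exact two-sided binomial test of these libraries, with Benjamini-Hochberg adjustment over 17666 genes, called these 4 of the 5 members tested, with an adjusted p of 3.27e-65 for Cyp11b2. It did not call Cyp17a1, with a log2 ratio of -0.03 and an adjusted p of 1.0. The test compares 2 libraries and not conditions, and of all genes tested 20.9% passed it, 10.8% as higher and 10.1% as lower in mouse 1. With counts as deep as those of these 4 genes, small ratios pass the test. No member was 2-fold apart, as 2.96% of the genes tested were.

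The direction of 3 of these small differences depended on the scale. In unscaled TPM, Cyp21a1, Cyp11b1 and Cyp11a1 were lower in mouse 1 than in mouse 2, whereas Cyp11b2 was higher. With TPM rescaled to nuclear protein-coding genes alone, Cyp21a1 stood at 16475 in mouse 1 and 15852 in mouse 2, Cyp11b1 at 9399 and 8660, and Cyp11a1 at 7529 and 7066. Scaling by total counts, by median-of-ratios or by the ERCC spike-ins left all 4 ratios above 0, with that of Cyp11b2 between 0.31 and 0.38. In the second quantification the Cyp11b2 ratio was 0.26. Fewer cells of a type and less RNA per cell cannot be told apart in a whole gland, so these ratios do not separate the number of cortical cells from the activity of each.

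**Figure D5:**
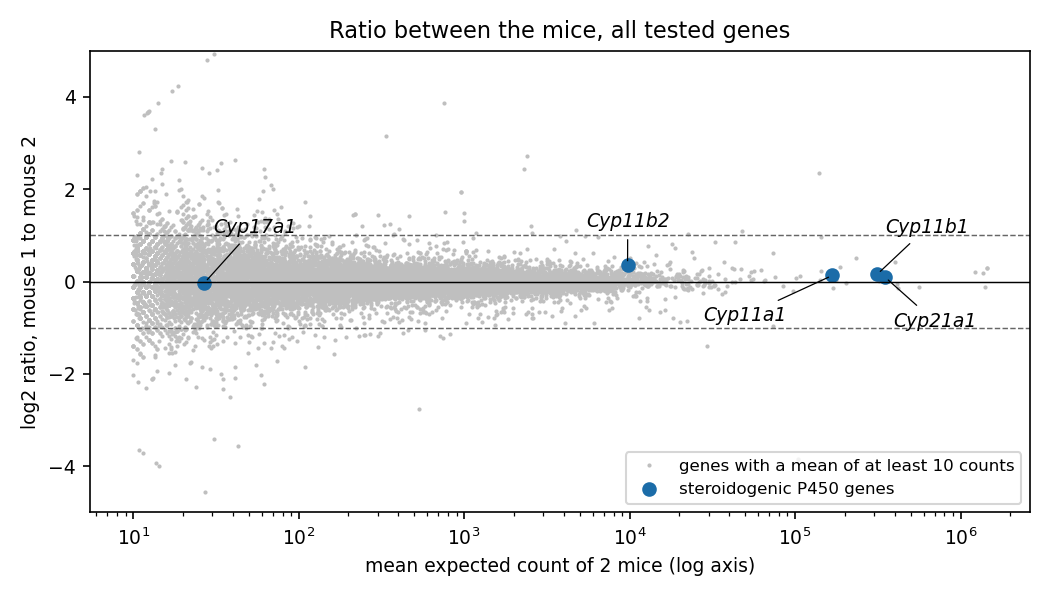
Log2 ratio of mouse 1 to mouse 2 after TMM scaling against the mean expected count (log axis) for 17666 genes (grey; 16 lie outside the plotted range) and the 5 members tested (blue), with dashed lines at a 2-fold difference. The members lie between -0.03 and 0.36, inside the dashed lines.

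Other genes of the pathway lay on both sides of 0 in the ratio between these libraries. Of 15 further steroid pathway genes tested, 5 were higher and 5 lower in mouse 1 by the same binomial test, beside 10.8% higher and 10.1% lower of all genes, with a median log2 ratio of 0.00, the same as the median of all genes tested. Fdx1, the electron donor of the mitochondrial enzymes, was among the higher, at 0.42 (adjusted p = 8.25e-156, exact binomial test). Star, at -0.06, and Hsd3b6, the isoform of the glomerulosa, at -0.36, were among the lower, and Hsd3b1, at 0.00, was not called (adjusted p = 0.594, exact binomial test). Hsd11b2, which inactivates corticosterone, was the only one 2-fold apart, on 20 and 3 counts. Sult2a1, which sulfates steroids in human adrenals, had 0 and 2 counts and was not tested.

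Transcription factors known to act on these genes were present in the same tissue. Nr5a1 (SF-1), the main activator of steroidogenic P450 genes, had 232.15 TPM in mouse 1 and 273.97 TPM in mouse 2. Its log2 ratio was -0.08. Nr4a1, an orphan receptor induced by ACTH and angiotensin, had 256.84 and 158.44 TPM, with a log2 ratio of 0.82. Nr4a2, which acts on CYP11B2 in human cells, had 8.52 and 5.29 TPM, with a log2 ratio of 0.70. Of the 10 factors tested, 3 were higher and 1 lower in mouse 1 by the exact binomial test, beside 10.8% and 10.1% of all genes, with a median log2 ratio of 0.21, and Foxl2, an ovarian factor that acts on Cyp19a1, was the only one 2-fold apart, on 110 and 33 counts. Gata4, a gonadal factor, had 0.73 and 0.62 TPM, and Gata6, its adrenal relative, had 28.59 and 27.76 TPM.

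Cell type markers also had ratios away from 0 between these libraries, by the same binomial test that called 10.8% of all genes higher and 10.1% lower in mouse 1. All 5 adipocyte markers were lower in mouse 1, with a median log2 ratio of -0.62, from 1161.6 TPM in sum in mouse 1 and 1848.4 TPM in mouse 2. Of 6 medulla markers 5 were higher in mouse 1 and none lower, with a median of 0.22 and sums of 2079.5 and 1952.3 TPM. Both hemoglobin genes were higher, with a median of 1.05. Among the 6 cortex markers, 3 were higher and 2 lower, with a median of 0.04. Of the zonal markers, 3 of 4 fasciculata genes were higher and 1 lower, with a median of 0.29, led by Akr1b7 at 1196.97 and 747.40 TPM. Mc2r and Mrap, both higher, stand in the cortex list too. Of 8 genes listed for the glomerulosa 2 were higher and 2 lower, with a median of -0.07. Cyp11b2, the enzyme of that zone, was at 0.36. Of 4 X-zone genes 1 was higher and 2 lower, with a median of -0.09, and none of 3 endothelial genes was called. The part of these cell types in the ratios of the P450 genes was not tested.

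A single transcript carried nearly all of each abundant member. Cyp11a1-201 took 98.13% of Cyp11a1 TPM in mouse 1 and 97.94% in mouse 2, and Cyp21a1-201 took 96.91% and 97.16% of Cyp21a1. Cyp11b1 and Cyp11b2 have 1 annotated transcript each. Transcripts that keep an intron took little: Cyp11a1-204 had 1.38% and 1.44%, and Cyp21a1-203 had 1.51% and 1.20%. Cyp17a1-201 took 78.36% and 81.49%, but on 28 and 26 counts in all, with 21.64% of mouse 1 given to Cyp17a1-203 from 1.20 counts and 18.51% of mouse 2 to Cyp17a1-202 from 1.52 counts. The 1 count of Cyp19a1 was given to Cyp19a1-201.

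The genes beside the abundant members were far lower. Cyp11a1 lies 1.7 kb from Ccdc33 (0.47 TPM on average) and 43.5 kb from Sema7a (3.70 TPM). Cyp11b1 and Cyp11b2 are adjacent, 9.4 kb apart, with Gml at 0 TPM on one side and 2010109I03Rik at 0.50 TPM on the other. Cyp21a1 lies among the complement genes, with C4b at 51.1 TPM and Stk19 at 18.8 TPM as its nearest protein-coding neighbours. Gm17322, a noncoding gene that overlaps Cyp11a1 on the same strand, had 2.69 and 3.0 TPM. Within 0.005 counts it was the only other gene with the posterior SDs of Cyp11a1, 0.95 counts in mouse 1 and 0.69 in mouse 2. Tnxa, a pseudogene overlapping Cyp21a1 on the other strand, had 65.34 and 44.90 counts, and Gml2, overlapping Cyp11b1 on the other strand, had 1 count in each mouse. Whether the counting used strand is not stated, so reads of the pairs on opposite strands could not be told apart with certainty. For Gm17322 and Cyp11a1, on the same strand, strand could not separate the reads in any case.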

How the data were processed

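Adrenal total RNA was sequenced as 2 libraries of 1 group. Per the labels, each directional library started from 300 ng, with ribosomal RNA reduced and ERCC spike-ins. The deposited text files name the mm10 assembly and GENCODE M21. The quantifier is not given in the sources used here. Reads of CAST alleles were placed on mm10, the genome of another strain, which can shift counts of divergent genes.

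Per the file headers, the first tables hold expected counts, which need not be whole, TPM over all features, and each transcript's percent of its gene. The deposited posterior SD of a count is a score in counts, and the deposited bounds of the TPM interval are a signal-like value whose level is not named. A second deposited transcript table, made from the reads and an index, holds estimated counts and TPM, which were summed to genes. Genes held 36558609 (mouse 1) and 32192201 (mouse 2) expected counts. Rows that name no gene (0.503% and 0.527% of counts) were left out. All 55536 genes matched the annotation, and 86 had no row in the second table.

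Expected counts were rounded, scaled with the TMM factors of edgeR 4.0.16 under R 4.3.3 and compared between libraries by an exact two-sided binomial test, doubling the smaller tail, over the 17666 genes averaging 10 counts or more, with Benjamini-Hochberg adjustment at 0.05. Log2 ratios used a prior count of 2. The quantifications were compared on TPM plus 0.1. The test was tried on simulated counts. Coding sequences were aligned with Biopython 1.88. Tables and figures were made in Python 3.11.15 with scipy 1.17.1, pandas 2.3.3, numpy 2.4.6 and matplotlib 3.10.9. Median-of-ratios factors came from DESeq2 1.42.0.

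The members, the pathway and marker lists and the tests were chosen with earlier results of these data known. Genes named are the 6 members, those lists, the 3 next P450 genes, near-identical copies, nearest protein-coding neighbours, overlapping genes, and neighbours in level. Transcripts are named from 5% of their gene. Transcripts under 5% that are named, and overlapping genes, were chosen after their values were seen. Without molecular identifiers, reads are no independent molecules, so intervals and floors hold counting error alone.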

Additional observations from a re-analysis of the deposited data

How the results depend on the processing

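No paired analysis was possible because both mice belong to 1 group. Rescaling TPM to nuclear protein-coding genes raised the mean level to 7297 for Cyp11a1, 9030 for Cyp11b1, 560.2 for Cyp11b2, 16164 for Cyp21a1, 1.65 for Cyp17a1 and 0.0170 for Cyp19a1, by construction of a smaller denominator. The second quantification gave 2105 TPM for Cyp11a1, 2364 for Cyp11b1, 415.1 for Cyp11b2 and 0.0666 for Cyp19a1, a Cyp11b1 to Cyp11b2 ratio of 5.70 against 16.2, and a P450 share of 96.33%, and the cause was not tested. On expected counts of the first quantification that share was 96.78%. The posterior mean TPM was 2730 for Cyp11b1, 0.745 for Cyp17a1 and 0.410 for Cyp19a1, and the cause was not tested. The log2 ratio between the mice of Cyp17a1 turned to 0.017 in the second quantification, on 29 and 26 estimated counts. Genes 2-fold apart between the mice numbered 2656 with no filter and 65 at a mean of 100 counts, against 523, and between the quantifications 3495 with no filter and 262 at 10 TPM, against 770, since the filters set how many low genes enter. The members called between the mice numbered 4 under every scaling and in the second quantification, and 4 members reached 1 TPM in either quantification. With 2 mice, leaving one out returns the value of the other, which is no check of stability. Counts under 30 limit the precision of Cyp17a1 and Cyp19a1.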

Other observations

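Cyp11a1-203, a short protein-coding transcript of Cyp11a1, was given 459 estimated counts in mouse 1 and 2652 in mouse 2 in the second quantification, 0.68% and 4.60% of the gene's TPM. In the first quantification it had 254 counts in each mouse. This transcript was chosen after its values were seen.

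Cyp19a1 had 10.1 and 4.00 estimated counts in mouse 1 and mouse 2 in the second quantification, against 1 and 0 expected counts in the first, all of them on Cyp19a1-201. Cyp17a1 had 29 and 26 estimated counts in the second quantification, against 28 and 26 expected counts in the first. In mouse 2 the second quantification gave 50.64% of Cyp17a1 TPM to Cyp17a1-202, a transcript that keeps an intron, from 4.56 estimated counts.

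The deposited TPM of Cyp21a1, Cyp11b1 and Cyp11a1 lay above the upper bound of the deposited TPM interval of the same gene in both mice. Cyp21a1 had 4853 TPM beside an upper bound of 4787 TPM in mouse 1, and 5124 TPM beside 5036 TPM in mouse 2. This was not particular to the members. Star had 5127 TPM beside an upper bound of 5066 TPM in mouse 1, and 5742 TPM beside 5652 TPM in mouse 2. How many of all genes lay above their interval was not counted. For Cyp11b2 and Cyp17a1 the TPM lay inside the interval in both mice. Cyp19a1, with 1 and 0 counts, lay below its interval in both mice.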
